A study of Rattus norvegicus with 6 samples.

Results

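The DNA replication machinery was examined in RNA-seq of rat sciatic nerve as a module of 46 genes, out of the 30957 genes of the deposited table. The members were taken by symbol, and cover the helicase and its loaders, the polymerases, the sliding clamp, the single-strand binding protein, the enzymes that join DNA fragments and the enzymes that supply DNA precursors. Each of the 46 symbols matched 1 row of the table. All 46 genes passed the filter on low counts and were counted in all 6 nerves, with 228 to 13098 counts per gene and nerve.

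The study compared 3 crushed sciatic nerves with 3 intact sciatic nerves of the opposite side, in Sprague Dawley rats, and the labels name no treatment or allele other than the crush. According to the methods the animals were adult males and the proximal stumps were taken at 4 days postinjury, whereas the sample labels give no age, sex or time point. The methods also describe rRNA removal and RNase R digestion, which the labels do not mention. The paper calls the intact nerves contralateral, so both groups may come from the same rats. Numbers 1 to 3 in the labels are not tied to individual rats, and pooling is not mentioned. The main test therefore took the 6 nerves as unpaired samples. Its p-values set the difference between the groups against the spread between nerves of the same group.

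DNA replication is prepared before S phase, when the origin recognition complex (ORC), Cdc6 and Cdt1 load the MCM helicase onto origins. Kinases then recruit Cdc45 and the GINS complex, the DNA opens, RPA coats the single strands, and polymerase alpha-primase starts new strands that polymerases epsilon and delta extend on the PCNA clamp. Most of these genes are transcribed under E2F factors as cells enter the cycle, and in injured nerve the dividing cells are known to be mainly Schwann cells, macrophages and fibroblasts.

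The 6 libraries held between 24844371 and 27139360 counts on genes, and TMM scaling factors lay between 0.99 and 1.01. Of all genes, 17425 had at least 1 count and 12393 were tested. Defining markers of the labelled tissue were at or near 0. The Schwann cell genes Mag and Cdh19 had 0 counts in all 6 nerves, as did the leukocyte gene Ptprc, and Mbp had at most 1 count per nerve. The 12 Schwann cell markers together summed to 17.9 to 19.3 FPKM in intact and 17.8 to 18.0 FPKM in crushed nerves, with Pmp22 the highest (10.2 and 10.6 FPKM on average), and the 14 macrophage and leukocyte markers to 1.43 to 2.47 and 2.06 to 2.52 FPKM. By contrast Mki67, a marker of cycling cells, had 37037 to 43837 counts per nerve. These values go against the label of whole sciatic nerve, so the samples are called nerves here only as the labels do, and the part of this cell make-up in the results below was not tested. In bulk RNA, fewer cells of a type and less RNA per cell cannot be told apart.

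The replication genes were expressed at high levels in both groups. On the scale of FPKM (counts per kilobase of gene length, scaled to the size of the library), the median member had 31.4 in intact and 31.5 in crushed nerves, against 5.52 and 5.57 for the median gene with a count. Ranked by mean FPKM among the 17425 genes with a count, the median member stood at percentile 82.3 in intact and 82.1 in crushed nerves. The lowest member stood at percentile 54.0 and 53.9, and the highest at 97.2 and 97.4. In intact nerves 29 of the 46 genes ranked above percentile 80, 15 above percentile 90 and 6 above percentile 95, and in crushed nerves the counts were 30, 15 and 6. No gene moved by more than 2.63 percentile points between the groups.

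**Figure D1:**
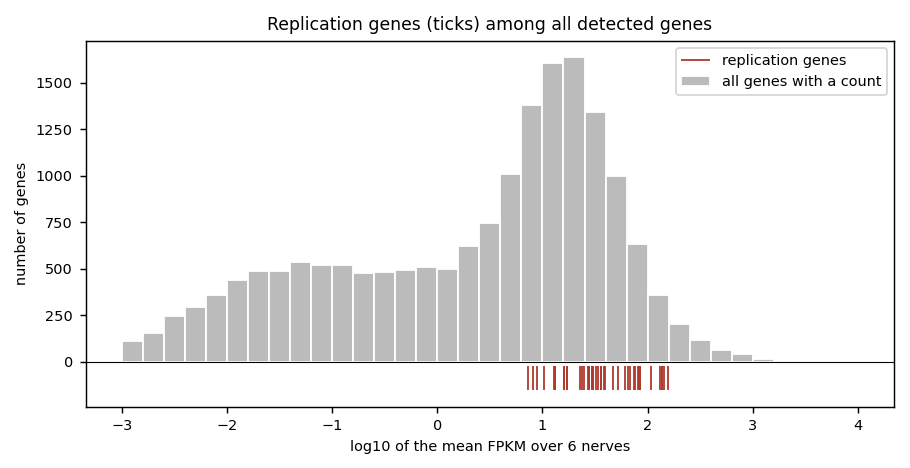
Replication genes among all genes with a count. Grey bars give the number of genes (vertical axis) in each interval of the log10 of the mean FPKM over 6 nerves (horizontal axis), and each red tick is 1 of the 46 replication genes; genes under 0.001 FPKM are in the first bar, and the ticks lie in the upper part of the distribution, with none below percentile 53.9 in either group.

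The summed output of the module was close to equal in the 6 nerves. Its 46 genes took 0.559%, 0.574% and 0.577% of the counts in intact nerves 1 to 3. In crushed nerves 1 to 3 the shares were 0.582%, 0.582% and 0.577%. Summed FPKM was 2210, 2278 and 2289 in the intact group and 2307, 2308 and 2287 in the crushed group. Intact nerve 1 was the lowest of the 6 on both sums, and the summed FPKM of crushed nerve 3 lay between those of intact nerves 2 and 3.

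At the limits of the study (absolute log2 fold change above 1 and unadjusted p under 0.001), edgeR's quasi-likelihood test called 0 of the 46 genes, against 35 of 12393 genes tested, or 0.282%. With a Benjamini-Hochberg adjusted p under 0.05 and no limit on the fold change it also called 0 of 46, against 387 genes, or 3.12%. At an unadjusted p under 0.05 there were 2 members (4.35%), Pole2 and Rfc1, against 2009 of all genes tested (16.2%). DESeq2 and limma likewise called 0 members by either rule, and each gave 1 member an unadjusted p under 0.05.

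The estimates were small as well as below the threshold. The log2 fold changes of the 46 genes ran from -0.19 to 0.13, with a median of 0.0131, while those of all genes tested ran from -1.96 to 4.33 with a median of -0.00174. No member had an absolute log2 fold change above 0.2, a size that 2351 of all genes tested (19.0%) exceeded. The median absolute log2 fold change was 0.0366 for the members and 0.082 for all genes tested, and the median standard error (SE) was 0.0494 and 0.0744. These comparisons were not matched for the level of the genes, and the part of depth in them was not tested. Point estimates were above 0 for 27 members and below 0 for 19, that is above 0 for 58.7% against 49.4% of all genes tested.

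How large a change the data still allow is given by the intervals. The 95% intervals of the log2 fold change extended by 0.0793 to 0.23 to either side, with a median of 0.109, and for 35 of 46 genes the whole interval lay between -0.2 and 0.2. Over all members the lowest bound was -0.42, for Rpa3, which is 0.747 of the intact level, and the highest was 0.277, for Orc5, which is 1.21 times the intact level. A change of the size the study required for a call was therefore outside the interval of each member.

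**Figure D2:**
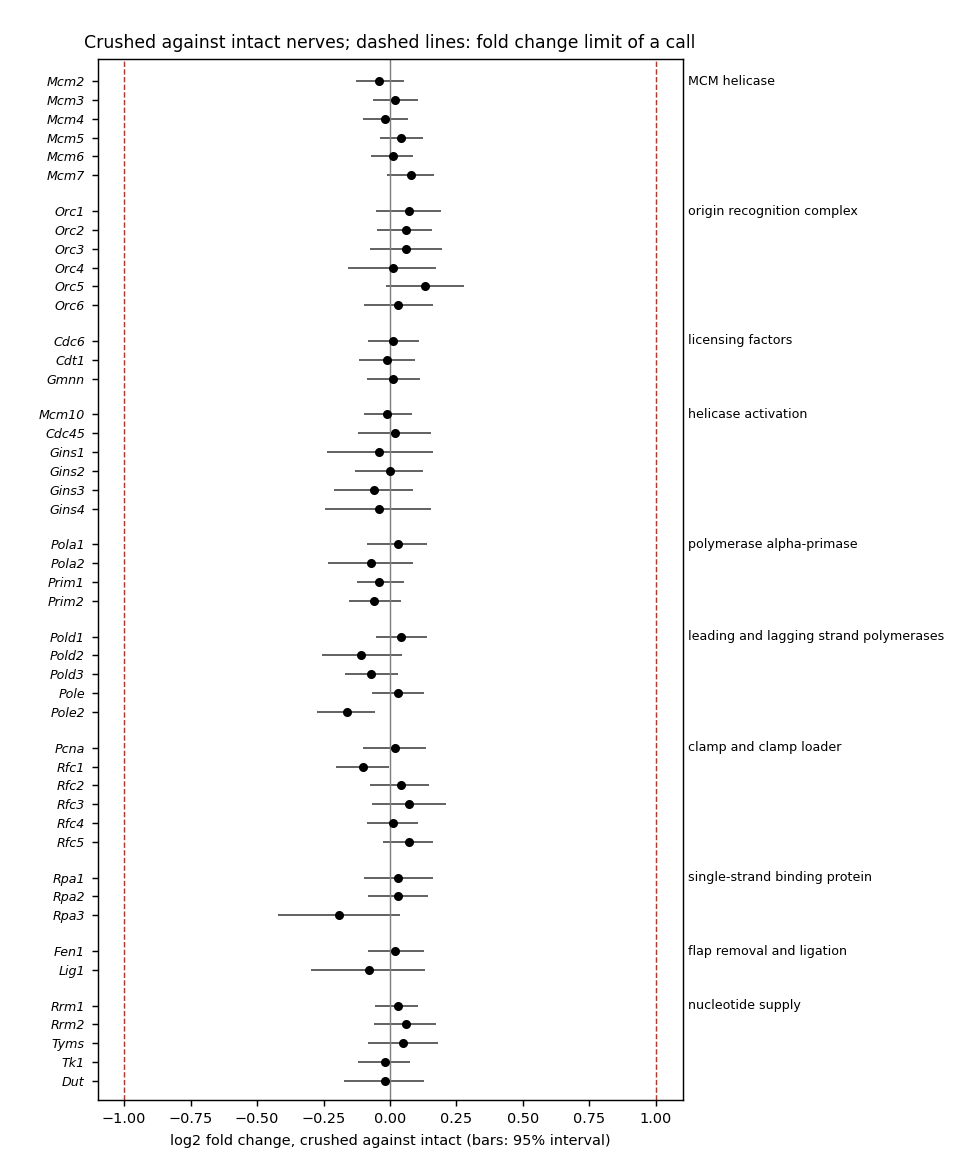
Log2 fold change of each replication gene, crushed against intact nerves (3 each), with its 95% interval in edgeR's quasi-likelihood test. Points run from -0.19 (Rpa3) to 0.13 (Orc5), and all intervals lie far inside the dashed lines at -1 and 1, the fold change limit of the study.

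Normalized CPM (counts per library, brought to the same total) of the 3 crushed nerves lay wholly on 1 side of the 3 intact nerves for 10 of the 46 genes (21.7%), against 2845 of all genes tested, or 23.0%. In the upward direction these were Mcm5, Mcm7, Orc2, Orc5 and Rfc5 (10.9%, background 10.8%), and in the downward direction Prim1, Prim2, Pold3, Pole2 and Rfc1 (10.9%, background 12.2%). In each direction the share was near the background.

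E2F elements are known in the promoters of many of these genes, and their letters were looked up so that they can be read beside the values. RefSeq windows of the GRCr8 assembly, from 250 bases before to 50 bases after the annotated start, were present for 39 of the 46 members (40 windows, since Dut has 2). Cdc6, Gins4, Mcm4, Orc1, Orc4, Rpa3 and Rrm2 had no entry. For the E2F element, 4 spellings were searched on both strands, TTTCCCGC, TTTGGCGC, TTTCGCGC and TTTGCCGC, and matches on the opposite strands of a palindrome may overlap. Of the member windows 19 (47.5%) held at least 1 of them, against 2.14% of all 33469 windows and 3.62% of the 11705 windows of genes with a count. CCAAT was in 55.0% of member windows (37.5% of all, and 37.0% for genes with a count). The GC box GGGCGG was in 62.5% (33.1% of all, and 57.8% for genes with a count). TATAAA was in 2.5% (14.2% of all, and 7.66% for genes with a count). The CHR letters TTTGAA were in 4 of the 40 member windows (18.3% of all, and 12.4% for genes with a count). A match is a run of letters in the window and was not tested as a binding site.

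**Figure D3:**
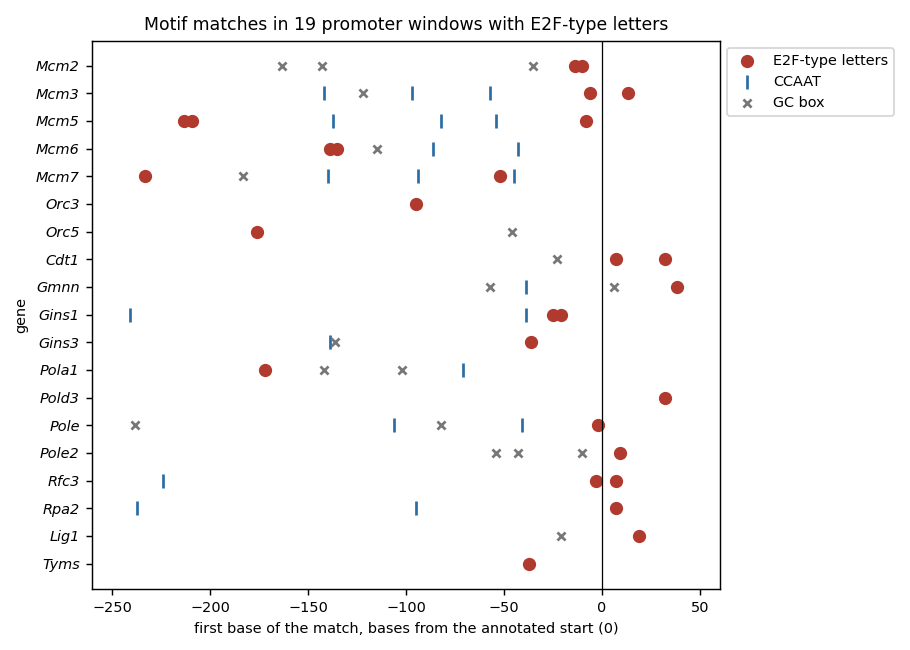
Matches in the 19 promoter windows with E2F-type letters, by distance in bases of the first base of the match from the annotated start at 0 (horizontal axis), 1 gene per line. Red circles mark E2F-type letters, blue bars CCAAT and grey crosses GC boxes. All 5 genes of the Mcm2 to Mcm7 ring that have a window are among the 19, while Mcm10 has a window without a match. Mcm2, Mcm5, Mcm6 and Gins1 have a pair of overlapping matches on opposite strands.

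The MCM helicase, the ring of Mcm2 to Mcm7 that unwinds DNA at the fork, was the highest group of the module. Its 6 genes had between 73.6 and 163 FPKM in single nerves and stood between percentiles 93.2 and 97.2 in intact nerves. The windows of Mcm2, Mcm3, Mcm6 and Mcm7 are shown because each of them holds 2 matches. They are parts of the RefSeq windows in GRCr8, all on the minus strand and written 5′ to 3′ along the gene, with E2F-type letters in capitals. The stretches are chr4:122918077-122918128 for Mcm2, chr9:30733706-30733772 for Mcm3, chr13:42404460-42404511 for Mcm6 and chr12:22163203-22163428 for Mcm7.
Mcm2: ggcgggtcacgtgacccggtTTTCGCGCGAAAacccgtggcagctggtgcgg
Mcm3: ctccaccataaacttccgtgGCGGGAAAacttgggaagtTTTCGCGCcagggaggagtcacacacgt
Mcm6: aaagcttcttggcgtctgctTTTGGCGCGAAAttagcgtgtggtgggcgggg
Mcm7: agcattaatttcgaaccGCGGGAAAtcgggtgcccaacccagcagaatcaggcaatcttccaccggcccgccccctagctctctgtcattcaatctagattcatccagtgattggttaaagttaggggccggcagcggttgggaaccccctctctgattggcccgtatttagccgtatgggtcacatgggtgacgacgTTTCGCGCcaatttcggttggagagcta
In Mcm2 and Mcm6 the matches on the 2 strands overlap in a run of 12 capitals, and in Mcm3 and Mcm7 they stand apart.

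The order of the MCM genes by FPKM was Mcm7, Mcm4, Mcm6, Mcm2, Mcm5 and Mcm3. It held in all 6 nerves for each pair of neighbours except Mcm2 and Mcm5, which were in that order in 3 of 6 nerves. Per length, the RNA of Mcm7 was 1.89 to 2.13 times as high as that of Mcm3 in the same nerve, although the ring holds 1 copy of each protein. Their lengths in the table, as counts divided by FPKM, are 2.48 kb for Mcm7 and 2.93 kb for Mcm3. On the scale of normalized CPM, which is not divided by length, Mcm4 was the highest, with means of 482 in intact and 477 in crushed nerves. Mcm7, on chr12:19306607-19314016 in Rnor_6.0, had 361, 384 and 387 normalized CPM in intact nerves 1 to 3 and 397, 392 and 403 in crushed nerves 1 to 3. The groups did not overlap, and intact nerve 1 was the lowest. Its log2 fold change was 0.08 (SE 0.04, 95% interval -0.0122 to 0.164, adjusted p = 0.385 in edgeR's quasi-likelihood test).

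Mcm3, the lowest member of the ring, had 76.0, 73.6 and 75.6 FPKM in intact and 75.7, 77.5 and 77.9 FPKM in crushed nerves, and these values overlapped. Its log2 fold change was 0.02 (SE 0.0377, adjusted p = 0.832 in the same test). Mcm5 had 316, 313 and 318 normalized CPM in intact and 330, 327 and 318 in crushed nerves, which did not overlap before rounding and differed by 0.04 on the log2 scale (adjusted p = 0.616). For Mcm2, Mcm4 and Mcm6 the log2 fold changes were -0.04, -0.02 and 0.01.

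ORC, the complex of Orc1 to Orc6 that marks origins, was expressed at 8.95 to 29.2 FPKM, well under the helicase that it helps to load. The order was Orc1, Orc4, Orc6, Orc2, Orc3 and Orc5, and only Orc4 and Orc6 changed places in a nerve (the order held in 5 of 6). Orc1 was 2.54 to 2.78 times as high as Orc5. All 6 point estimates lay above 0, from 0.01 for Orc4 to 0.13 for Orc5, and none passed the test (adjusted p between 0.369 and 0.974 in edgeR's quasi-likelihood test). The sign of Orc4 turned in 4 of 11 alternative settings, and those of the other 5 in none. For all 6 genes intact nerve 1 had the lowest normalized CPM of the 6 nerves, so the estimates are not independent of that nerve. Without it the log2 fold change was 0.029 for Orc1 and 0.075 for Orc5, against 0.071 and 0.13 with all nerves.

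Orc5, on chr4:9160067-9223997, had the highest estimate of the module. Its normalized CPM was 28.9, 32.8 and 33.0 in intact and 34.1, 34.7 and 34.9 in crushed nerves. The groups did not overlap, and intact nerve 1 stood below the other five. The log2 fold change was 0.13 (SE 0.0662, 95% interval -0.0156 to 0.277, adjusted p = 0.369 in edgeR's quasi-likelihood test), and it ranged from 0.08 to 0.17 over the alternative settings. Orc1, the largest ORC subunit, had 64.1, 72.8 and 68.9 normalized CPM in intact and 71.2, 74.2 and 70.9 in crushed nerves, with overlap (log2 fold change 0.07, SE 0.0555, adjusted p = 0.574). Orc2 went from 66.8, 68.6 and 67.2 to 69.0, 68.7 and 72.8 normalized CPM, without overlap and with an adjusted p of 0.615 in the same test.

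Among the licensing factors, Cdc6 and Cdt1 bring the helicase to ORC and Gmnn (geminin) binds Cdt1 and blocks it after S phase has begun. Per length, the inhibitor was the highest of the 3 in all nerves. Lengths in the table, as counts divided by FPKM, are 1.18 kb for Gmnn, 2.24 kb for Cdt1 and 3.94 kb for Cdc6. On the scale of normalized CPM, which is not divided by length, Gmnn was the lowest. Its means were 71.7 in intact and 72.4 in crushed nerves, against 105 and 104 for Cdt1 and 110 and 111 for Cdc6. Gmnn had 59.9, 59.7 and 62.0 FPKM in intact and 62.0, 63.0 and 60.2 in crushed nerves, 2.13 to 2.29 times the level of Cdc6. Cdc6 had 26.8, 27.6 and 28.5 FPKM in intact and 29.1, 27.5 and 28.1 in crushed nerves, and Cdt1 lay between the others at 44.6 to 48.5. Their log2 fold changes were within -0.01 to 0.01 (adjusted p between 0.911 and 0.932 in edgeR's quasi-likelihood test), and the values of the 2 groups overlapped for all 3. The stretch of the Cdt1 window with its 2 separate matches, at chr19:67529236-67529298 on the plus strand of GRCr8, is shown because both lie after the annotated start.
Cdt1: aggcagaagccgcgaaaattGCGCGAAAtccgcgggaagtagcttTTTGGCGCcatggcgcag
The first match begins at position 7 and the second at position 32 after the start.

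Mcm10, Cdc45 and the 4 GINS genes turn the loaded ring into a moving helicase. This group held the gene with the lowest rank of the module, Gins2, at percentile 54.0 in intact nerves, while Gins1 reached percentile 81.7. GINS proteins form a complex with 1 copy of each, yet Gins1 was 3.91 to 4.62 times as high as Gins2 per length. Gins2, on chr19:54151048-54163608, had 7.2, 7.18 and 7.55 FPKM in intact and 7.42, 7.51 and 7.17 in crushed nerves. In the table its length, as counts divided by FPKM, is 4.19 kb against 1.08 kb for Gins1, and on the scale of normalized CPM, which is not divided by length, they were near each other, with 29.9 to 31.7 for Gins2 and 27.6 to 36.0 for Gins1.

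Gins1 was among the most variable members in intact nerves. It had 27.6, 36.0 and 34.8 normalized CPM in intact and 32.3, 31.5 and 32.0 in crushed nerves, so that the crushed nerves lay inside the range of the intact ones. The log2 fold change was -0.04 (SE 0.0904, 95% interval -0.238 to 0.161, adjusted p = 0.876 in edgeR's quasi-likelihood test). Its window holds a 12-letter palindrome with matches on both strands, on chr3:160184875-160184926, plus strand, GRCr8.
Gins1: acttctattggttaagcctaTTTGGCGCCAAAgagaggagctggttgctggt
Cdc45, the partner of GINS and MCM at the fork, had 49.8, 48.8 and 56.2 normalized CPM in intact and 52.7, 52.3 and 51.5 in crushed nerves, with overlap. Cdc45 shares 1425 bases with the endothelial gene Cldn5, which had 0 counts. Over the 6 genes of the group the log2 fold changes ran from -0.06 (Gins3) to 0.02 (Cdc45), with adjusted p between 0.698 and 0.978.

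Polymerase alpha-primase begins each new strand with a short RNA-DNA primer. Its small primase subunit Prim1 was the highest of the 4 genes, with 68.8, 69.5 and 68.7 FPKM in intact and 66.8, 69.0 and 68.4 in crushed nerves. The accessory subunit Pola2 was the lowest, with 14.6, 12.4 and 13.5 FPKM in intact and 13.7, 12.6 and 12.6 in crushed nerves. Prim1 was thus 4.7 to 5.61 times as high as Pola2, and the order Prim1, Pola1 (the catalytic subunit), Prim2 and Pola2 held in all 6 nerves.

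Prim2, the large primase subunit, had 87.5, 83.2 and 84.0 normalized CPM in intact and 80.4, 82.5 and 82.1 in crushed nerves. The groups did not overlap, and the difference was -0.06 on the log2 scale (SE 0.044, adjusted p = 0.577 in edgeR's quasi-likelihood test). For Prim1 the values were 111, 112 and 110 against 106, 110 and 109 normalized CPM, without overlap before rounding (log2 fold change -0.04, adjusted p = 0.706). Pola1 and Pola2 had log2 fold changes of 0.03 and -0.07, and their groups overlapped. The locus of Pola2 shares 7643 bases with Cdc42ep2, which had 5 to 13 counts per nerve.

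Polymerases epsilon and delta copy the leading and the lagging strand. The smallest p of the module belonged to Pole2, the second subunit of polymerase epsilon, on chr6:91494393-91518996. Pole2 had 50.5, 49.0 and 49.9 normalized CPM in intact and 44.5, 44.1 and 44.7 in crushed nerves, from 1278, 1293 and 1236 and from 1215, 1196 and 1121 counts. All crushed nerves were below all intact ones, and the distance between the groups was larger than the range within either. Mean FPKM was 29.2 ± 0.404 in intact and 26.3 ± 0.231 in crushed nerves (SD, n = 3 each). The log2 fold change was -0.16 (SE 0.0492, 95% interval -0.274 to -0.056, unadjusted p = 0.00677, adjusted p = 0.115 in edgeR's quasi-likelihood test after Benjamini-Hochberg adjustment), so it did not pass at the 5% level after adjustment over all genes. In the alternative settings it stayed between -0.17 and -0.15, with a smallest adjusted p of 0.111. Its window holds 1 match, read on the strand opposite to the gene, shown because the gene had the smallest p, on chr6:93435325-93435372, minus strand, GRCr8.
Pole2: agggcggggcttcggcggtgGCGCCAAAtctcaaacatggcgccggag

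The catalytic subunit Pole had 27.6, 29.2 and 30.6 FPKM in intact and 29.9, 30.3 and 30.1 in crushed nerves, which overlapped, with a log2 fold change of 0.03 (SE 0.0437, adjusted p = 0.792 in edgeR's quasi-likelihood test). Pole and Pole2 were within 0.935 to 1.16 times of each other, and Pold1, the catalytic subunit of polymerase delta, was in the same range at 26.5 to 28.6 FPKM. The delta subunits Pold2 and Pold3 were lower. Pold2 had 38.0, 36.3 and 35.4 normalized CPM in intact and 33.9, 36.7 and 31.4 in crushed nerves, with overlap through crushed nerve 2 (log2 fold change -0.11, SE 0.0682, adjusted p = 0.491). Pold2 shares 13 bases with Aebp1, a gene with 13652 to 16223 counts per nerve, and it is not stated whether the counting used strand, so its level is uncertain. Pold3 had 78.1, 74.8 and 74.1 normalized CPM in intact and 73.0, 71.7 and 71.8 in crushed nerves, without overlap (log2 fold change -0.07, SE 0.0452, adjusted p = 0.495).

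PCNA is the ring that holds polymerases on DNA and a marker of S phase, and the 5 RFC subunits load it. Pcna, on chr3:124880698-124884570, had 125, 145 and 137 FPKM in intact and 139, 139 and 139 in crushed nerves, and stood at percentile 96.8 and 96.9. Mean FPKM was 136 ± 10.5 and 139 ± 0.072 (SD, n = 3 each), and the crushed nerves lay inside the range of the intact ones. The log2 fold change was 0.02 (SE 0.053, 95% interval -0.1 to 0.134, adjusted p = 0.911 in edgeR's quasi-likelihood test).

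Rfc1, the large subunit of the loader, was the lowest of the group by FPKM and the other member with an unadjusted p under 0.05. It had 153, 142 and 139 normalized CPM in intact and 135, 134 and 134 in crushed nerves. The groups did not overlap, and intact nerve 1 stood above the other five. The log2 fold change was -0.10 (SE 0.0452, 95% interval -0.204 to -0.00457, unadjusted p = 0.0419, adjusted p = 0.284), and ranged from -0.13 to -0.06 over the alternative settings. Klb, which has 33689 bases in common with the Rfc1 locus, had 0 counts.

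The small subunits Rfc2 to Rfc5 had point estimates above 0, on the other side from Rfc1, and the difference between subunits was not tested. Rfc5 had 80.9, 80.7 and 83.1 normalized CPM in intact and 85.6, 86.3 and 84.6 in crushed nerves, without overlap, and a log2 fold change of 0.07 (SE 0.0423, adjusted p = 0.474 in edgeR's quasi-likelihood test). Rfc3 also had 0.07 (adjusted p = 0.63), with overlap, while Rfc2 had 0.04 and Rfc4 0.01. By FPKM the order was Pcna, Rfc4, Rfc3, Rfc5, Rfc2 and Rfc1 in all 6 nerves. Per length, Pcna was 4.26 to 5.34 times as high as Rfc1. Their lengths in the table, as counts divided by FPKM, are 1.16 kb for Pcna and 5.17 kb for Rfc1. Mean normalized CPM, which is not divided by length, was 158 and 145 in intact and 160 and 134 in crushed nerves. Of this group Rfc3 is shown by its window, where matches on opposite strands are separated by 2 bases, on chr12:5836545-5836602, plus strand, GRCr8.
Rfc3: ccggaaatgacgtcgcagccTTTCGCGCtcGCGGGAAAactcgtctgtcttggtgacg

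RPA, the trimer of Rpa1, Rpa2 and Rpa3, protects single-stranded DNA. The levels followed the order of subunit size in all 6 nerves, with 47.0 to 55.5 FPKM for Rpa1, 33.2 to 37.5 for Rpa2 and 14.7 to 19.2 for Rpa3. Rpa1 had 47.0, 55.5 and 53.2 FPKM in intact and 54.3, 55.4 and 51.6 in crushed nerves, with overlap (log2 fold change 0.03, SE 0.0589, adjusted p = 0.832 in edgeR's quasi-likelihood test). Rpa3, on chr4:34279320-34282351, had the lowest estimate of the module and also the fewest counts, 265, 314 and 234 in intact and 266, 246 and 228 in crushed nerves. Its normalized CPM was 10.5, 11.9 and 9.45 against 9.74, 9.06 and 9.1, so crushed nerve 1 overlapped with intact nerve 3. The log2 fold change was -0.19 (SE 0.104, 95% interval -0.42 to 0.0393, adjusted p = 0.4), with a range of -0.26 to -0.10 over the settings. A similar row of the table, LOC100362927, had 1 to 3 counts per nerve.

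Fen1 trims the flaps between lagging-strand fragments and Lig1 seals them. Fen1 had 31.7, 31.7 and 32.9 FPKM in intact and 34.0, 33.3 and 31.6 in crushed nerves, with a log2 fold change of 0.02 (SE 0.0479, adjusted p = 0.871 in edgeR's quasi-likelihood test). Lig1 had 10.4, 9.28 and 7.75 FPKM in intact and 8.74, 8.98 and 8.48 in crushed nerves, 3.05 to 4.25 times below Fen1. For both genes the groups overlapped. The intact nerves differed most from each other in Lig1, with a coefficient of variation of 14.9%, the highest of the 46 genes. Its log2 fold change was -0.08 (SE 0.0967, 95% interval -0.297 to 0.13, adjusted p = 0.722).

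The enzymes of nucleotide supply were the second group with all members above percentile 90 in intact nerves. Rrm1, the large subunit of ribonucleotide reductase, had 127, 134 and 128 FPKM in intact and 134, 134 and 132 in crushed nerves. Dut, which removes dUTP, was the lowest, with 68.5, 61.1 and 65.1 FPKM in intact and 62.3, 60.9 and 70.8 in crushed nerves. Tk1 (thymidine kinase) lay at 104 to 113 FPKM and Tyms (thymidylate synthase) at 75.3 to 90.5. The order Rrm1, Tk1, Tyms, Rrm2 and Dut held in all 6 nerves. Values of the groups overlapped for all 5 genes, the log2 fold changes ran from -0.02 to 0.06, and adjusted p lay between 0.659 and 0.907.

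The level of Rrm2, the small and cell-cycle bound subunit of ribonucleotide reductase, is uncertain because the table has another row described as the same polypeptide. Rrm2 on chr6:43884678-43889515 had 2115, 2301 and 2178 counts in intact and 2533, 2516 and 2088 in crushed nerves. LOC100359539 on chr19:25391700-25394229 had 16089, 20137 and 18653 against 20962, 20301 and 18167, that is 88.4% to 89.7% of the counts of both rows. It had 249 to 305 FPKM and stood at percentile 98.7 in intact nerves, above every member. How the counting assigned reads between the rows is not given in the sources used here. Neither row passed the test, with a log2 fold change of 0.06 for each (adjusted p = 0.659 for Rrm2 and 0.702 for LOC100359539 in edgeR's quasi-likelihood test). Summed into 1 gene, a choice made after the counts were seen, they gave 0.058 (adjusted p = 0.685).

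**Figure D4:**
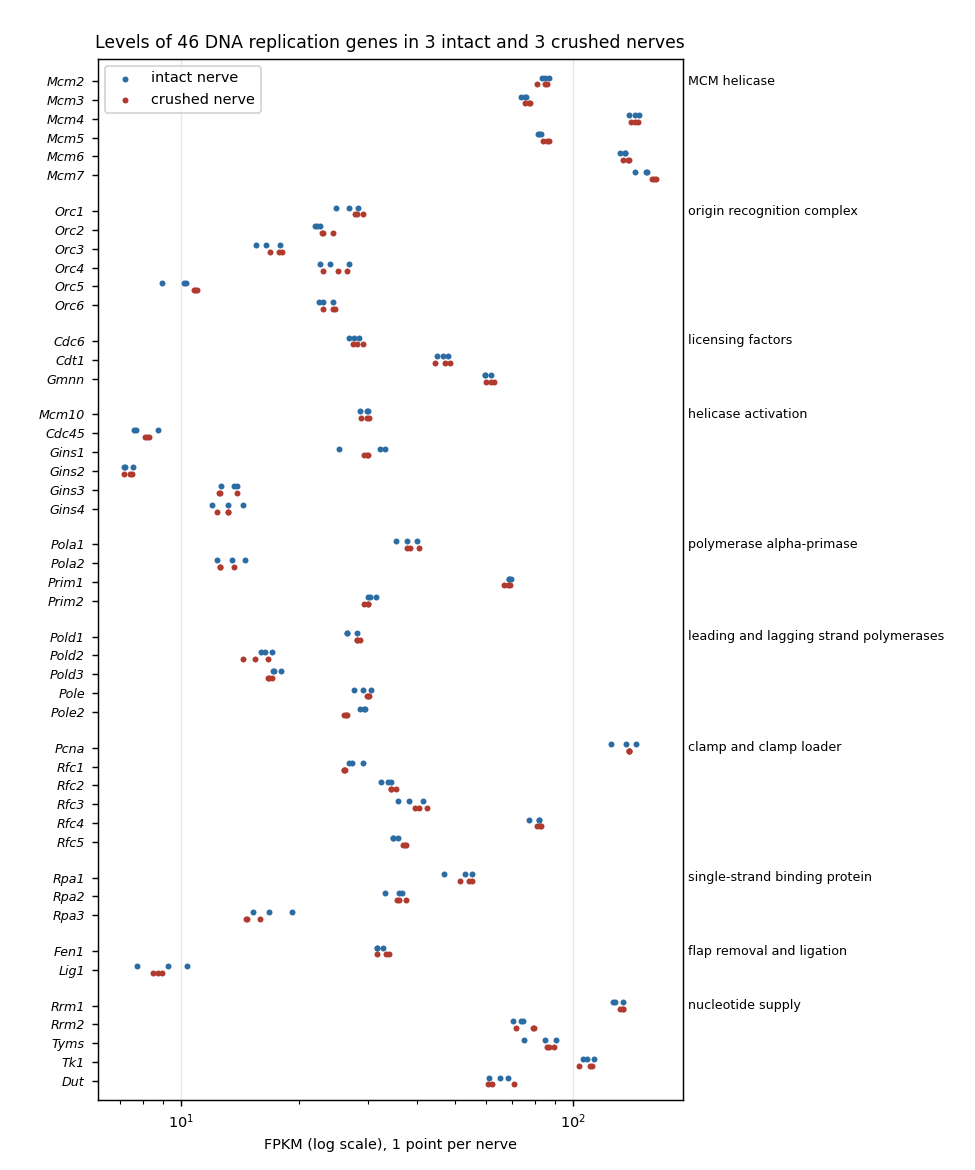
FPKM of the 46 replication genes by role (log scale, 1 point per nerve, blue for 3 intact and red for 3 crushed nerves). Levels run from 7.17 (Gins2) to 163 (Mcm7), and the 2 colours lie close together in every gene compared with the distances between genes.

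Spread within a group was small for these genes. The median coefficient of variation of the members was 3.65% in intact and 2.42% in crushed nerves, against 6.68% and 4.79% for all genes tested. The members also had more counts than most genes, and the part of depth in this difference was not tested. In intact nerves the members ranged from 0.694% to 14.9% (Lig1). The lowest of the 6 nerves was intact nerve 1 for 17 of the 46 genes and crushed nerve 3 for 11. Intact nerve 1 was also the highest for 12 genes, among them Rfc1, Lig1 and Pola2, while it was the lowest for Gins1, Pcna, Orc5 and Mcm7. The median percentile of the members was between 81.8 and 82.9 in each nerve.

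**Figure D5:**
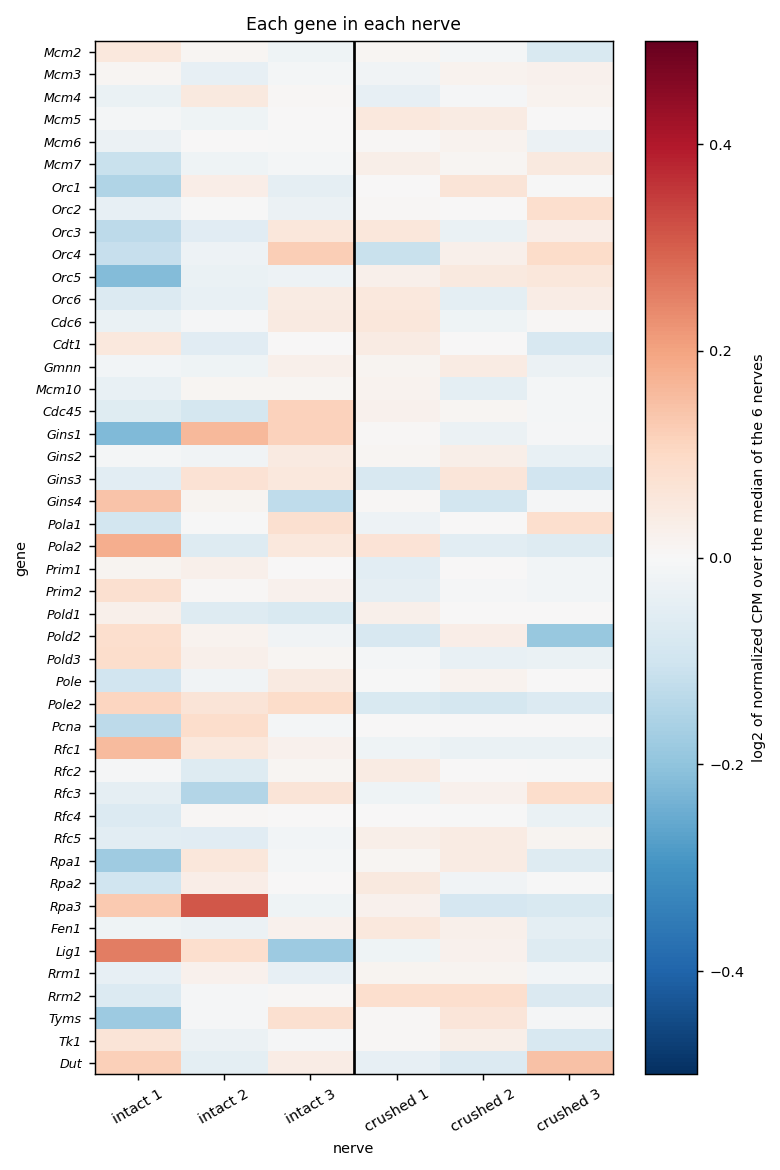
Each replication gene (line) in each nerve (column), as the log2 of its normalized CPM over the median of the 6 nerves. Red is higher and blue is lower, on a scale from -0.5 to 0.5; the strongest colours are in the intact nerves (Rpa3, Lig1, Gins1), and Pole2 is a line with a change of colour between the groups and little within them.

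Levels and fold changes were also set beside the promoter letters, as a description. The 19 members with a match had a median of 37.7 FPKM in intact nerves and a median percentile of 85.3, and the 20 members with a window but no match 31.4 FPKM and 82.3. Median log2 fold change was 0.02 in both, with ranges of -0.16 to 0.13 and -0.11 to 0.07. The 7 members with no window had a median of 26.7 FPKM. Among genes of high level, Mcm2, Mcm3, Mcm5, Mcm6 and Mcm7 had a match, and Pcna and Rrm1 had none. Among genes of low level, Lig1 and Orc5 had a match, and Cdc45 and Gins2 had none.

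Other genes of replication were taken from a list of the pathway. Of 43 rows tested for 42 genes (Dbf4 has 2 rows), 0 were higher and 0 lower at an adjusted p under 0.05 in edgeR's quasi-likelihood test, and 3 had an unadjusted p under 0.05. DESeq2 and limma called 0 of them too. The smallest p were those of Dscc1, a subunit of an alternative clamp loader (log2 fold change -0.17, adjusted p = 0.178), and Mcmbp, which binds MCM proteins (-0.13, adjusted p = 0.198). The median percentile of the list was 75.2 in intact nerves. In 20 further genes of nucleotide supply 0 passed and 5 had an unadjusted p under 0.05. DESeq2 called 1 gene of this list and limma 0. Samhd1, which breaks down dNTPs, differed by 0.20 on the log2 scale (adjusted p = 0.115 in edgeR's test).

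Of 16 genes for E2F factors and S phase cyclins and kinases, 0 were higher and 1 was lower at an adjusted p under 0.05. That gene, E2f5, a factor of the repressor class, had 64.3, 61.1 and 60.5 FPKM in intact and 44.8, 52.7 and 54.4 in crushed nerves, and crushed nerve 1 was the lowest. It fell by 0.31 on the log2 scale (SE 0.0722, adjusted p = 0.0463 in edgeR's quasi-likelihood test), and the call was lost in 9 of 11 alternative settings, with adjusted p between 0.0527 and 0.14 there. Leaving out any 1 of the 6 nerves was enough for that, and the log2 fold change was -0.23 without crushed nerve 1. Cdk2, the S phase kinase, had 0.06 (adjusted p = 0.544).

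Mitotic markers stood even higher than the replication genes, with a median percentile of 94.7 over 9 genes in intact nerves. None of the 9 passed an adjusted p under 0.05 in edgeR's quasi-likelihood test or in DESeq2, and 1 had an unadjusted p under 0.05, Ccnb1 (cyclin B1, log2 fold change 0.11, adjusted p = 0.22). Mki67 had 174, 150 and 151 FPKM in intact and 142, 148 and 153 in crushed nerves, with overlap (log2 fold change -0.11, SE 0.0575, adjusted p = 0.367). Intact nerve 1 was the highest, and without it the log2 fold change was -0.033.

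Some markers of stromal cells passed the test where no replication gene did. Of 9 fibroblast markers, 4 (Col1a2, Dcn, Lum and Postn) were at 0 counts in all nerves and 5 were tested. Of these, 3 were lower and 0 higher in crushed nerves at an adjusted p under 0.05 (3.12% of all genes tested passed in either direction). The 3 were Fn1, Col1a1 and Col3a1. Col3a1 was near the floor, with 22, 23 and 21 counts in intact and 10, 3 and 7 in crushed nerves. Fn1, a matrix protein, had 131 ± 6.89 FPKM in intact and 88.2 ± 1.24 in crushed nerves (SD, n = 3 each, log2 fold change -0.59, adjusted p = 3.52e-05 in edgeR's quasi-likelihood test). Of the remaining tested markers, Pdgfra lay on the other side (log2 fold change 0.19, 95% interval 0.0497 to 0.339, adjusted p = 0.166) and Thy1 had -0.23 (adjusted p = 0.0552). The list, of which Fn1 was the largest part, summed to 226 to 243 FPKM in intact and 171 to 184 in crushed nerves. Of 6 mural cell markers, with Rgs5 at 0, 4 were tested and 2 were lower, among them Cspg4 (22.3 and 17.7 FPKM, log2 fold change -0.35, adjusted p = 0.00103), and the list summed to 24.4 to 26.4 and 19.7 to 20.2 FPKM. Erbb3, a receptor of Schwann cells, was the only 1 of 5 tested Schwann cell markers to pass, and it was lower (adjusted p = 0.0222).

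The remaining marker lists held little RNA. Of the macrophage and leukocyte markers 3 of 14 were tested and 0 passed by edgeR's test, with 0 at an unadjusted p under 0.05. Adgre1, C1qa, C1qb, C1qc, Cd163, Ptprc and Tyrobp were at 0 counts and Cd68 was the highest (1.17 and 1.37 FPKM). Endothelial markers summed to 2.41 to 2.81 FPKM in intact and 2.46 to 2.8 in crushed nerves, with Cldn5 at 0 and Flt1 the highest (1.68 and 1.87). Skeletal muscle markers, with Ckm at 0 and Mylpf the highest (0.411 and 0.448), and adipocyte markers, with Fabp4 and Lep at 0 and Cfd the highest (0.151 and 0.0662), were too low to be tested. The part of these cell types in the levels of the replication genes was not tested.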

How the data were processed

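For each nerve the authors deposited a count of reads per Ensembl gene, not normalized, and in the same table FPKM values that the authors made from those counts. The submitters' processing notes name HISAT2, StringTie 1.3.0 and the build Rnor_6.0. The counting program, its use of strand and the annotation release are not given in the sources used here.

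Counts of all genes were normalized with TMM factors, passed through edgeR's expression filter (12393 of 30957 genes) and compared by edgeR's quasi-likelihood method, 3 crushed against 3 intact nerves, with no replicate block and Benjamini-Hochberg adjustment over all genes tested. The versions were R 4.3.3, edgeR 4.0.16 and limma 3.58.1. Standard errors and 95% intervals came from the test statistic. Percentiles are ranks of the mean FPKM of a group among 17425 genes with at least 1 count. The depth, 24844371 to 27139360 counts per nerve, made 3 counts equal to 0.11 to 0.121 normalized CPM, and floors of this kind cover counting error only. Nerves of one group differed beyond sampling noise (chi-square per degree of freedom 3.27 to 11.8), so each nerve was 1 sample. The largest values, 11.4 and 11.8, were those of the pairs with intact nerve 1. Intact nerves 2 and 3 gave 4.58, and pairs of crushed nerves gave 3.27 to 7.3. The calculation was tested on simulated data.

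The members and the lists were chosen with earlier results of these data known. Full values are given for the 10 members with the smallest p and for the highest and lowest of each role group by mean FPKM, for the 2 smallest p of each pathway list, and for the highest marker and markers at 0 counts, together with Mki67. Other genes are named with their values where the text turns on them, and were chosen after their values were seen. Alternatives were DESeq2 1.42.0, library size alone, no filter, limma with a trend on log2(FPKM + 0.1), the replicate number as a block, each nerve left out in turn, other bases for the percentile, and, chosen after seeing the data, Rrm2 summed with LOC100359539. Promoter windows came from RefSeq (GRCr8) by symbol, and no coordinates were converted between builds. Protein sequences and lncRNAs were not used here, and some genes of the lists are not reported here.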

Additional observations from a re-analysis of the deposited data

How the results depend on the processing

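In all 11 alternative fits, 0 of the 46 replication genes were called by either rule in either direction, with a smallest adjusted p of 0.111 for any member and log2 fold changes from -0.26 to 0.17. The sign stayed for 24 members in every fit and turned for 22 in at least 1. The median log2 fold change of the members, 0.0131, was 0.03 with library size alone, 0.0297 with limma on FPKM, and -0.000188 to 0.0244 with 1 nerve left out. Their median percentile in intact and crushed nerves was 75.1 and 74.9 among genes past the expression filter, and 81.2 and 81.3 by normalized CPM. Of the E2F and S phase list 1 gene (E2f5) was called, and 0 with library size alone, with limma on FPKM, with the replicate block and without any 1 of the nerves (0 to 0). In the other nucleotide supply genes 1 gene was called with DESeq2. Gins2 turned to 0.012 with library size alone and to 0.012 with limma on FPKM. With 1 nerve left out, estimates ran from -0.0087 to 0.036 for Cdc6, -0.091 to 0.026 for Dut, -0.00011 to 0.051 for Fen1, -0.14 to 0.037 for Gins1, -0.02 to 0.018 for Gins2, -0.0033 to 0.03 for Gmnn, -0.016 to 0.11 for LOC100359539, -0.19 to 0.026 for Lig1, -0.033 to 0.073 for Pcna, -0.0011 to 0.066 for Pole and -0.026 to 0.088 for Rpa1. The cause of these moves was not tested. Same-numbered nerves did not deviate together (correlations across genes of -0.00965, -0.00262 and 0.0709), so the numbers were not taken as pairs, and the replicate block left 0 members called and changed, of the 4 pathway lists, the call of E2f5 (adjusted p = 0.0838 in edgeR's test) and no other. With 3 nerves a group and 24844371 or more counts per nerve, the spread between nerves limits the test to changes beyond the intervals given, and FPKM depends on the gene length used.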
